A study of Mus musculus with 8 samples.

Results

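Among the sorted cells of mouse intestine, smooth muscle cells and pericytes were taken as the barcodes in which RNA of 4 mural marker genes was present and was not exceeded by RNA of fibroblast markers. M is the number of unique molecular identifiers (UMIs, each standing for 1 captured RNA molecule) of Myh11, Acta2, Rgs5 and Des, and F is the number from Dcn, Col3a1 and Col1a2. A barcode was a member when it had at least 500 detected genes, at most 20% of its UMIs from mitochondrial genes, M of at least 10 and M no lower than F. This gave 138 members among 8944 kept barcodes, 19 of 2756 in the small intestine and 119 of 6188 in the large intestine. The members were thus selected on the measured values of those 7 genes, which are given below as a description. Members were compared with the 8806 other kept barcodes and with the 474 fibroblast-marker barcodes among them, which had F of at least 10 and F above M.

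Smooth muscle cells contract when calcium entering through channels activates myosin light chain kinase, which lets smooth muscle myosin pull on actin filaments. In the gut they form the outer muscle coat that moves the contents along, the thin muscularis mucosae beneath the mucosa, strands that run up the villi, and the walls of arteries and veins. Pericytes are contractile cells embedded in the basement membrane of capillaries and small venules. They respond to platelet-derived growth factor through Pdgfrb, and receive Notch signals from the endothelium through Notch3.

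The series comprised 8 libraries, and the members came from the 2 made of sorted intestinal tissue, 1 of small and 1 of large intestine. The donors were C57BL/6 and Lgr5-eGFP-ires-CreERT2 mice on that background, a line in which the stem cell gene Lgr5 drives green fluorescent protein and an inducible Cre recombinase. Age and sex were not used here, no treatment was named for these libraries, and the labels did not say how many animals went into each. The sort took live cells and enriched LGR5+ stem cells and CD31+ PDPN+ LYVE1+ lymphatic endothelial cells, so muscle cells were not sought and their share describes the sort and not the tissue. The 4 Visium libraries were technical duplicates of small and large intestinal sections, in which each spot of a slide collects RNA from the several cells above it, and the 2 organoid libraries were not used. With 1 library per tissue, tissue and library cannot be told apart, no test was possible, and cells of 1 library are not replicates.

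The deposited matrices held 78482770 UMIs in 8842 small intestinal barcodes and 142501907 UMIs in 8646 large intestinal ones. Members had a median of 6602 UMIs and 2709 genes in the small intestine and 6066 UMIs and 2559 genes in the large intestine. The median mitochondrial share of UMIs was 8.24% and 5.37% in members, 4.73% and 3.93% in the fibroblast-marker barcodes and 6.76% and 6.44% in the other kept barcodes. The members' depth was close to that of the fibroblast-marker barcodes (medians 6873.5 and 7758 UMIs) and below that of the other kept barcodes (12510 and 22430). Members made up 0.689% of kept barcodes in the small intestine (95% Clopper-Pearson interval 0.416 to 1.07%) and 1.92% in the large intestine (1.60 to 2.30%). All intervals given here cover counting error only. The libraries shared 25 barcodes, and 0 of them were members.

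The 4 marker genes that chose the members were each present, with Rgs5 and Des unevenly so. M had a lowest, median and highest value of 14, 125 and 910 UMIs over the 19 small intestinal members and of 10, 96 and 336 over the 119 large intestinal ones. Myh11, the smooth muscle myosin heavy chain, was seen in 94.7% and 90.8% of members at 5477 and 2695 CPM (counts scaled to the total UMIs of the group, the usual CPM), and at 0.974 and 0.806 CPM in the other kept barcodes. Without 3 small intestinal cells described below Myh11 stood at 3418 CPM there. Acta2, smooth muscle alpha-actin, stood at 12225 and 11124 CPM. Rgs5, which dampens G protein signalling and marks pericytes, was seen in 78.9% of members in the small intestine but 30.3% in the large. It was no clean divider in the small intestine, since 45.9% of the fibroblast-marker barcodes there also had an Rgs5 UMI, at 572 CPM. Des, the muscle intermediate filament desmin, was seen in 94.7% and 47.1%.

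Few barcodes lay near the minimum of M, and more large intestinal members lay near the limit on F. The large intestine had 2 members with M of 10 to 12, and the small intestine had 0. Just below the minimum, with M of 7 to 9 and no lower than F, there was 1 barcode in the small intestine and 0 in the large intestine. On the other side, 17 and 21 kept barcodes had M of at least 10 but more F than M, and in 2 and 4 of these F was at most 2 times M. Inside the rule, 2 small and 27 large intestinal members had F at 50 percent of M or more, and requiring M of at least 2 times F left 94 in the large intestine.

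A list of 25 genes of the contractile apparatus and its regulators, which holds none of the rule's genes, was higher in CPM for 25 of 25 in both tissues, against the other kept barcodes and against the fibroblast-marker barcodes alike. All 25 passed the minimum of 20 UMIs in every one of these 4 comparisons. The median log2 ratio over the list was 7.64 and 7.14 against the other kept barcodes of small and large intestine, where the medians of all genes measured were 0.22 and 0.19. All 25 were at least 2-fold higher there, as were 33.6% of the 1715 genes measured in the small intestine and 28.7% of the 7016 in the large intestine. Against the fibroblast-marker barcodes the medians were 3.73 and 3.62, and 25 and 24 genes were at least 2-fold higher, beside 17.8% of 1790 genes and 9.78% of 6768. Of the 16 mural genes, 16 had more CPM than in other kept barcodes in both tissues, and 13 and 14 more than in the fibroblast-marker barcodes. Of these 16, 8 were measured in the small and 13 in the large intestine. At least 2-fold higher were 8 and 13 against other kept barcodes, and 6 and 12 against the fibroblast-marker barcodes, beside the same shares of all genes. With at most 10% mitochondrial UMIs the small intestinal contractile median over other kept barcodes was 6.80. The exception to the 2-fold difference among contractile genes was Synm, an intermediate filament protein, at a log2 ratio of 0.95 (95% interval 0.52 to 1.36) in the large intestine.

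Tagln (transgelin, an actin-binding protein) reached 9688 CPM in members of the small intestine and 7510 CPM in those of the large. In the fibroblast-marker barcodes it stood at 124 and 82.4 CPM, a log2 ratio of 6.29 and 6.51. Actg2, the gamma-actin of visceral smooth muscle, had 4199 and 2100 CPM in members and only 3.64 and 5.35 CPM in the fibroblast-marker barcodes, from 2 and 19 UMIs. Of its small intestinal UMIs, 86.4% came from 3 cells that are described below, and the other 16 members had 878 CPM. The gene lies at chr6:83512909-83536251 (GRCm38.p6). Cnn1, calponin, an actin-binding protein that restrains myosin, had 1407 and 872 CPM; in the other kept barcodes it had 0.0749 and 0.332 CPM, from 4 and 44 UMIs. Without those 3 cells and 1 large intestinal cell that, like them, had a UMI of Chrm2, the Cnn1 level of the small intestine was below that of the large, at a log2 ratio of -0.81. Lmod1, a leiomodin that nucleates actin filaments, had 1006 and 833 CPM against 7.29 and 4.50 CPM in the fibroblast-marker barcodes. Tagln was seen in 14.9% and 11% of the fibroblast-marker barcodes, the other 3 genes in at most 4.05%.

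The myosin side followed the same order. Myl9, the regulatory light chain that the kinase phosphorylates, had 5488 and 3854 CPM in members, with log2 ratios of 5.72 and 5.07 over the fibroblast-marker barcodes. Mylk, the kinase itself, had 5211 and 1766 CPM, with ratios of 5.20 and 4.92. Tpm2, beta-tropomyosin, which lies along the actin filament, had 7042 and 4280 CPM and ratios of 6.30 and 4.76. Smtn (smoothelin) and Synpo2, which bind actin in contractile cells, had 486 and 164 CPM and 701 and 167 CPM. Without the 3 small intestinal cells that held most Actg2, the small intestinal levels were lower, at 2061 CPM for Mylk, 3270 for Tpm2, 226 for Smtn and 313 for Synpo2, while the contractile list's median over the fibroblast-marker barcodes was 3.31 in place of 3.73. Jph2, which ties the cell membrane to the calcium store, was scarcer at 187 and 109 CPM, and still stood 4.36 and 3.95 log2 units above the fibroblast-marker barcodes.

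**Figure D1:**
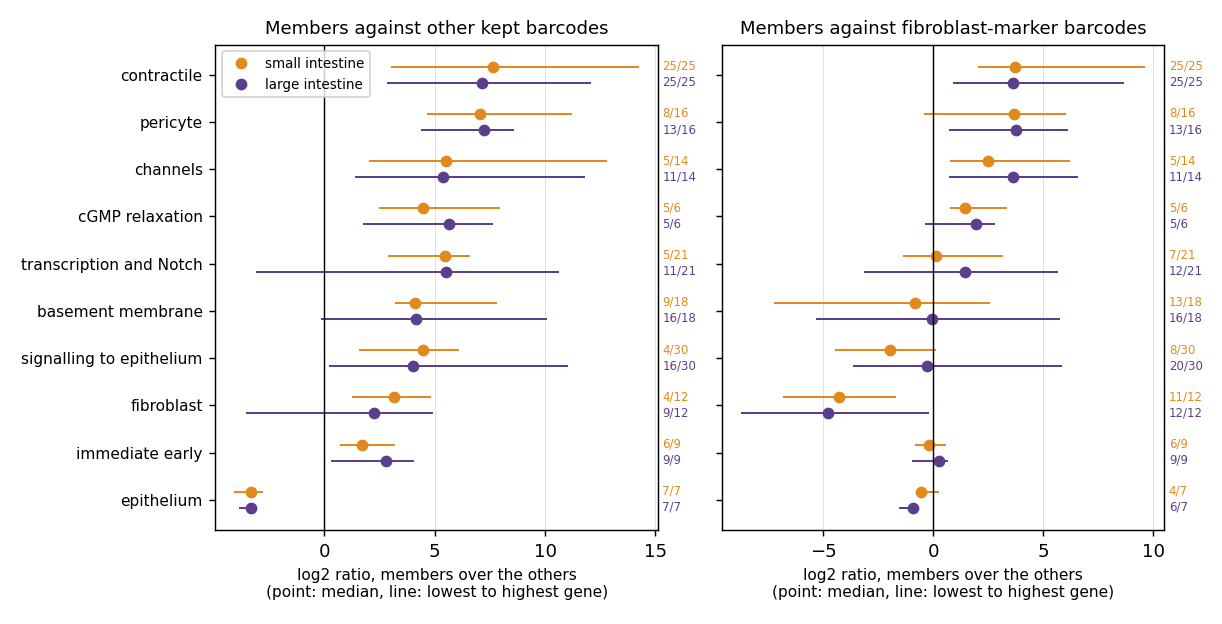
Log2 ratio of CPM for members over other kept barcodes (left panel) and over fibroblast-marker barcodes (right panel), as the median of each list (point) and its lowest to highest gene (line), over the genes that passed 20 UMIs, whose number of the listed genes stands at the right. The contractile medians are 7.64 and 7.14 on the left and 3.73 and 3.62 on the right.

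Promoters of contractile genes are shown because many of these genes are known to be switched on through the CArG box, the site bound by serum response factor. The strict form of the box was taken as CC, then 6 bases of A or T, then GG, and the loose form allowed 1 of the 6 to be C or G. The box is its own reverse complement in form, so both strands were covered by the search. RefSeq windows (GRCm38.p6) run from 250 bases before a transcript start to 50 after it, as the promoter table sets that start, and 27 windows were found for 21 of the 25 contractile genes. Of these, 2 (7.41%) held a strict and 7 (25.9%) a loose match, and of all 32851 windows 1.63% and 9.98% did. For the mural list, 14 windows of 11 genes held 0 strict and 2 loose matches (14.3%), and for 10 fibroblast windows 0 and 1 (10.0%). A gene with several windows was counted in each of them. Both mural matches were the same box in windows of Egflam, and Jph2 gave the same box in more than 1 contractile window. A match describes letters in these windows only, and so does its absence.

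Boxes are in capitals in the windows below, 5′ to 3′ on the gene's strand, for actin and the light chain (Acta2, Myl9), for a channel higher in members (Trpc6) and for calponin, which has no match (Cnn1). They lie at chr19:34255324-34255623 on the minus strand, chr2:156775214-156775513 on the plus strand, chr9:8543892-8544191 on the plus strand and chr9:22099003-22099302 on the plus strand. These starts need not be the outermost end of the gene: the Acta2 window lies partly and the Trpc6 window wholly inside the gene span of the RefSeq gene table, and so do their boxes (Acta2 chr19:34240336-34255585, Trpc6 chr9:8543867-8680752). Counted from the promoter table's start, the boxes of Acta2 begin 84 and 34 bases before it, those of Myl9 161 and 99 bases before its start, of which CCTAATAAGG is strict, and the strict box of Trpc6 122 bases before its start.
Acta2: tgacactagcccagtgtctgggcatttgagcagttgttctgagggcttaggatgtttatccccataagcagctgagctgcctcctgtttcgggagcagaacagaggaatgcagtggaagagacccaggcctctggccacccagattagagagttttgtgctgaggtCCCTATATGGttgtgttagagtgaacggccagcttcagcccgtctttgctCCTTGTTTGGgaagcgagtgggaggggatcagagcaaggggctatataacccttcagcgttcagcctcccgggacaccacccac
Myl9: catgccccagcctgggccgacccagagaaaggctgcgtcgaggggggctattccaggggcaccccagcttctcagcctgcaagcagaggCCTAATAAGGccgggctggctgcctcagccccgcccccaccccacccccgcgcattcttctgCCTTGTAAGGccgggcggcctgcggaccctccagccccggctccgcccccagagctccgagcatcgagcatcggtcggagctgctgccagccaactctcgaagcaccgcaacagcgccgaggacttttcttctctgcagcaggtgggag
Trpc6: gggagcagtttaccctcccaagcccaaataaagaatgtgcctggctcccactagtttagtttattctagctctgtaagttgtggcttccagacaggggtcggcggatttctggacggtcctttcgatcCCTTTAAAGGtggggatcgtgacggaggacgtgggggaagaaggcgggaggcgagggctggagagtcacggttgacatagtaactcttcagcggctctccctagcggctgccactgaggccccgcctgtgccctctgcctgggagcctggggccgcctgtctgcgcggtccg
Cnn1: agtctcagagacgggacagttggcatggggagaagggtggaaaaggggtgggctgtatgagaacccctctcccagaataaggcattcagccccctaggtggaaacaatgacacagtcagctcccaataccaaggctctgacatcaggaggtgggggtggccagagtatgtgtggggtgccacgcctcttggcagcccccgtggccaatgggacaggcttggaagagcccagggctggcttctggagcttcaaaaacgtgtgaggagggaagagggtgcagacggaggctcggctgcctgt

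Genes outside the lists with the highest ratios over the other kept barcodes in both libraries included further muscle genes. Actc1, cardiac alpha-actin, had 249 and 158 CPM in members, and 0 UMIs in the 474 fibroblast-marker barcodes. Carmn, a non-coding RNA of smooth muscle, was seen in 94.7% and 73.9% of members at 311 and 307 CPM, with log2 ratios of 9.77 and 9.79. Cdh6, a cadherin, had 170 and 164 CPM against 0.0562 and 0.0829 CPM. Rbpms2, an RNA-binding protein of developing gut muscle, had 198 and 113 CPM, and Slc2a4, the insulin-regulated glucose transporter, 136 and 77.6 CPM. Against the fibroblast-marker barcodes the highest ratios also included Pcp4l1 (514 and 257 CPM in members, 0 and 2.81 CPM there), Fbxl22 (509 and 192 CPM, 7.29 and 3.10 CPM) and Myom1, a myomesin (300 and 54.9 CPM, 0 and 0.281 CPM).

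Fibroblast genes outside the rule were lower in members than in the fibroblast-marker barcodes for 12 of 12 in both tissues. At least 2-fold lower were 11 of the 11 measured in the small intestine and 10 of 12 in the large intestine, beside 22.5% and 9.91% of all genes measured. F is part of the rule, so this describes how the members were chosen. Clec3b, a secreted lectin, had 17 and 1.19 CPM in members against 1843 and 1477 CPM. C3, a complement component, had 11.3 and 0 CPM against 1320 and 743 CPM. Gsn, which severs actin filaments, had 266 and 437 CPM against 6928 and 10041 CPM. Outside the list, Mgp (matrix Gla protein, an inhibitor of calcification) had 33.9 and 57.3 CPM against 4905 and 2207 CPM. Adamdec1 and Mfap5 differed from these in the large intestine: Adamdec1, a secreted protease, had 901 CPM in members and 1065 CPM in fibroblast-marker barcodes, and Mfap5, a microfibril protein, 684 and 987 CPM.

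Markers of other cell types varied. The 5 blood endothelial genes were at least 2-fold higher in large intestinal members than in other kept barcodes (median 3.33) and than in fibroblast-marker barcodes (median 5.35), beside the shares of 28.7% and 9.78% of all genes given above. Their UMIs lay in few members, Pecam1 and Plvap each in 4.20%. In the small intestine 4 of these 5 genes were higher in CPM than in other kept barcodes, and 0 of 5 passed the minimum for a measured gene. All 4 T and NK cell genes (Cd3e, Cd3g, Trbc2, Nkg7) had 0 UMIs in the 138 members. Of 4 mesothelial genes, Msln, Upk3b and Lrrn4 had 0 UMIs and Wt1 had 1, in the small intestine. Among 7 epithelial genes, 7 were at least 2-fold lower than in the other kept barcodes in each tissue, beside 19.8% and 17.8% of all genes measured. Epcam, an epithelial adhesion molecule, still gave 147 and 173 CPM, of which 92% and 53% of the UMIs came from 1 cell. Of the members, 2 and 12 had at least 3 UMIs of Epcam, Cdh1, Ptprc and Pecam1 together, and without these the contractile genes had a median log2 ratio of 7.33 over the other kept barcodes of the large intestine. Of 5 genes of lymphatic endothelium, which the sort enriched, 0 had more CPM in small intestinal members than in other kept barcodes and 2 had in large intestinal ones, where 4 of 5 had more than in fibroblast-marker barcodes and 2 of 3 measured were at least 2-fold higher, beside 9.78% of all genes. Mmrn1 gave 35.8 CPM in large intestinal members, all from 1 cell, and Lyve1 gave 28.7 CPM, 96% of it from 1 cell. Immediate-early genes had more CPM than in other kept barcodes for 9 of 9 in both tissues, and 5 of 6 and 8 of 9 measured were at least 2-fold higher, beside 33.6% and 28.7% of all genes. Against the fibroblast-marker barcodes 0 of 6 and 0 of 9 were 2-fold higher or lower, beside 17.8% higher and 22.5% lower of all genes in the small intestine and 9.78% and 9.91% in the large. Among 3 genes of interstitial cells of Cajal, Kit was at 5.65 and 14.3 CPM in members and at 25.3 and 29.0 CPM in other kept barcodes, while Ano1, a chloride channel, was at 56.5 and 34.6 CPM against 1.31 and 15.8 CPM, and Etv1 at 28.3 and 23.9 CPM against 2.47 and 2.58 CPM.

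In the large intestine the members fell into 2 classes by Hhip and Notch3. This split was chosen after the values were seen, and both genes are left out of the lists wherever the classes are compared. Hhip, an inhibitor that binds hedgehog ligands at the cell surface, lies at chr8:79965850-80058060. Notch3, the Notch receptor of mural cells, lies at chr17:32120820-32166896. Of 119 large intestinal members, 94 had Hhip and no Notch3 UMI (79.0%, interval 70.6 to 85.9%), 22 had Notch3 and no Hhip (18.5%, 12 to 26.6%), 0 had both and 3 had neither. In the small intestine the order was the other way: 4 of 19 had Hhip only (21.1%, 6.05 to 45.6%), 10 had Notch3 only (52.6%, 28.9 to 75.6%), 1 had both and 4 had neither. Beside this, barcodes with at least 3 UMIs of the B cell gene Cd79a, which should lack both genes, had Hhip in 0.272% and 1.14% of cells and Notch3 in 0% in both tissues, at median depths of 3159 and 18307.5 UMIs.

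Hhip was not used by the rule. It was seen in 79.0% of large intestinal members at 2168 CPM, and in 14.5% of the fibroblast-marker barcodes at 67.8 CPM. After each cell was thinned to 2000 UMIs, leaving out shallower cells, the shares were 77.0% and 8.47%. In the small intestine Hhip was seen in 26.3% of members and 16.2% of fibroblast-marker barcodes, and in 11.1% (1.38 to 34.7%) and 8.22% after thinning. With 18 thinned members, these shares cannot show whether members and fibroblast-marker barcodes differ there. Notch3 was seen in 18.5% of members and 0.25% of the fibroblast-marker barcodes of the large intestine, and in 57.9% and 1.35% in the small intestine.

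The visceral muscle genes Actg2 and Cnn1 belonged to the Hhip-positive members of the large intestine. In UMIs per 10,000, Actg2 ran from 0 through a median of 21.5 to 120 over the 94 Hhip-positive cells, 92 of which had a UMI, and from 0 through 0 to 11 over the 22 Notch3-positive cells, 1 of which had a UMI. Their summed levels were 2475 and 47.4 CPM, a log2 ratio of -5.71 (-7.15 to -4.58) for Notch3-positive over Hhip-positive. Cnn1 ran from 0 through 9.23 to 39.8 over the Hhip-positive cells, and again 1 Notch3-positive cell held a UMI; the levels were 1021 and 47.4 CPM. The ranges of both genes overlapped, because some Hhip-positive cells had no UMI and 1 Notch3-positive cell had several.

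Among the other contractile genes, Tagln and Myl9 were held by both classes. Tagln had 7757 CPM in Hhip-positive and 6260 CPM in Notch3-positive cells, and Myl9 had 3998 and 3217 CPM. Each gave a log2 ratio of -0.31, and both ratios turned positive (0.30 for Tagln, 0.24 for Myl9) without the members that held a blood endothelial UMI. The summed levels hide a wide spread between cells. Tagln ran from 0 through a median of 17.4 to 268 UMIs per 10,000 over the 22 Notch3-positive cells, 16 of which had a UMI. It ran from 5.70 through 81.4 to 182 over the 94 Hhip-positive cells, 94 of which had a UMI. Des was higher in Notch3-positive cells, at 838 against 266 CPM, and Acta2 lower, at 6695 against 11984 CPM; both belong to the rule. Over the contractile list, 22 of 25 genes were lower in CPM in the Notch3-positive cells, and 13 of 23 measured were at least 2-fold lower, beside 14.2% of the 1341 genes measured. The list's median was -1.24, and -0.74 without the members that held an endothelial UMI, beside -0.05 over all genes measured.

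Genes of pericytes and other mural cells gave the opposite picture. All 15 list genes other than Notch3 were higher in CPM in the Notch3-positive cells. Of these, 12 were measured and all 12 were at least 2-fold higher, beside 19.2% of all genes measured. Pdgfrb, the receptor that keeps pericytes on vessels, ran from 0 through 3.82 to 47.7 UMIs per 10,000 over the Notch3-positive cells and from 0 through 0 to 3.72 over the Hhip-positive cells. Its levels were 569 and 59.8 CPM, a log2 ratio of 3.25 (2.68 to 3.83). A Pdgfrb UMI was also seen in 58.1% and 45.25% of the fibroblast-marker barcodes of small and large intestine. In the large intestine it was seen in 86.4% of Notch3-positive and 31.9% of Hhip-positive cells. Thinned to 2000 UMIs, the large intestinal shares were 15.1% in fibroblast-marker barcodes, 61.1% in Notch3-positive and 11.8% in Hhip-positive cells. Rgs4, another regulator of G protein signalling, was seen in 90.9% of Notch3-positive cells at 371 CPM and in 0 of 94 Hhip-positive cells. Ndufa4l2 and Cox4i2, subunits of the mitochondrial respiratory chain that are used in low oxygen, had 869 and 466 CPM in Notch3-positive cells against 0 and 5.70 CPM. Heyl, a Notch target, and Gja4, a gap junction protein of vessel walls, had 158 and 198 CPM against 0 UMIs. Vtn had 379 CPM against 0, with 62% of its UMIs in 1 cell.

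Rgs5, a gene of the rule, followed this division in the large intestine. There it ran from 0 through 40.4 to 204 UMIs per 10,000 over the Notch3-positive cells of the large intestine and from 0 through 0 to 14.0 over the Hhip-positive cells, at 4901 and 57.0 CPM. Rgs5 UMIs exceeded those of Myh11 and Des together in 15 of 22 Notch3-positive and 1 of 94 Hhip-positive cells. In the small intestine that was so in 3 of 10 and 0 of 4, but an Rgs5 UMI was seen in 4 of 4 Hhip-positive and 6 of 10 Notch3-positive cells. Their levels there were 379 and 862 CPM.

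**Figure D2:**
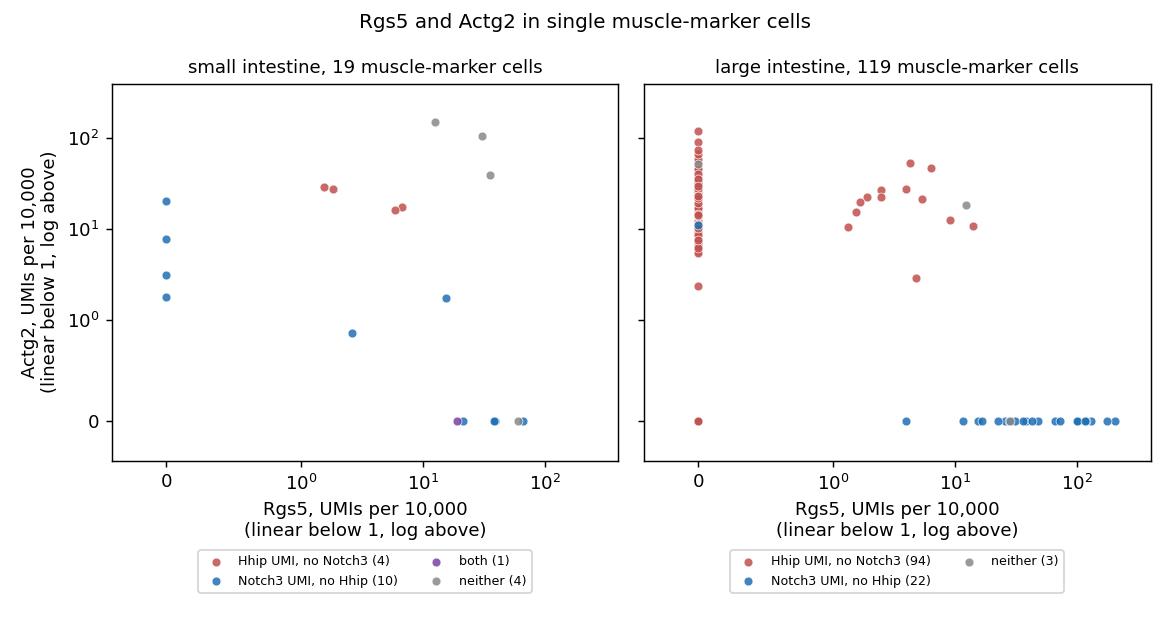
Each of the 138 members as a point, small intestine on the left and large intestine on the right, with Rgs5 across and Actg2 upwards, in UMIs per 10,000 on axes that are linear below 1 and logarithmic above. Colours give the classes by Hhip and Notch3: large intestinal Hhip-positive cells spread along Actg2, 13 of 94 with an Rgs5 UMI, while 1 of 22 Notch3-positive cells holds Actg2.

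**Figure D3:**
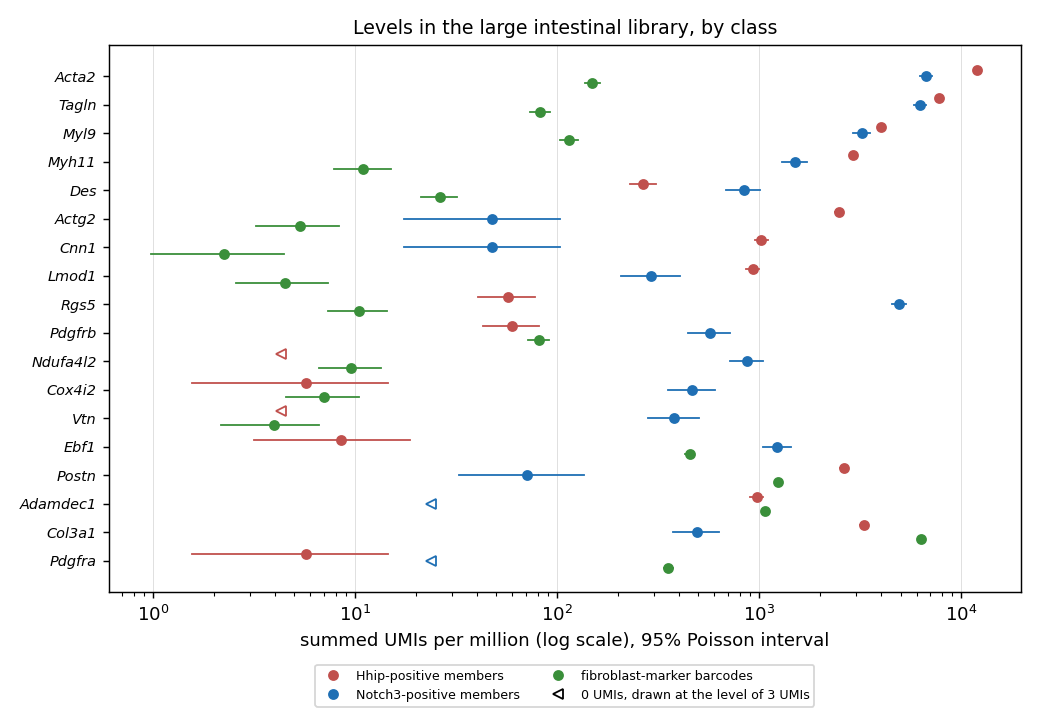
CPM on a log axis with 95% Poisson intervals, in the large intestine, for Hhip-positive members, Notch3-positive members and fibroblast-marker barcodes; open triangles mark 0 UMIs, drawn at the level of 3 UMIs. Actg2 and Cnn1 are high in the Hhip-positive members, at 2475 and 1021 CPM, and Pdgfrb, Cox4i2 and Ndufa4l2 in the Notch3-positive ones, at 569, 466 and 869 CPM.

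The small intestinal members, far fewer, are given by values alone. Des, of the rule, stood at 1136 CPM in Hhip-positive and 1006 CPM in Notch3-positive cells, with overlapping intervals, where the large intestine had 266 and 838 CPM. The median mitochondrial share of UMIs was 4.96% in Hhip-positive and 11.1% in Notch3-positive cells, and 5.22% and 5.76% in the large intestine; its part in these values was not tested. Pdgfrb was seen in 10 of 10 Notch3-positive and 0 of 4 Hhip-positive cells, Sparcl1 (a matrix protein of vessel walls) likewise in 10 of 10 and 0 of 4. Cox4i2 and Ndufa4l2 were each seen in 6 of 10 and 0 of 4. Of the 15 mural list genes other than Notch3, the Hhip-positive cells had a UMI of only Mcam, in 1 cell. Actg2 ran from 16.3 through 22.4 to 29.0 UMIs per 10,000 over the 4 Hhip-positive cells. In the Notch3-positive cells it ran from 0 through 1.29 to 20.4, with a UMI in 6 of 10, where the large intestine had 1 of 22. With 4 Hhip-positive cells, a gene seen in 0 of them is not shown to be absent. Of these 4 cells, 2 were among the highest doublet scores, which an alternative removed, against 0 of the 10 Notch3-positive cells.

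Of 21 listed transcription factors, 6 passed the minimum of 20 UMIs between the classes of the large intestine, so most are given by level alone. Mef2c, a factor of muscle genes, stood at 996 CPM in Notch3-positive and 68.4 CPM in Hhip-positive cells of the large intestine, a log2 ratio of 3.86. Ebf1, a factor of B cells and mural cells, is not one of the 21 and was named for its high ratio between the classes. It was at 1225 against 8.55 CPM, and was seen in 95.5% against 2.13% of cells. Foxs1 was at 182 against 4.27 CPM and Epas1, the hypoxia factor of vessels, at 490 against 74.1 CPM. In the other direction, Tcf21, a mesenchymal factor, was at 39.5 against 375 CPM and Foxf2, a hedgehog target of gut mesenchyme that did not pass the minimum, at 7.90 against 140 CPM. Over the 21 factors listed, 9 were higher and 10 lower in CPM in Notch3-positive cells. Myocd, the coactivator that drives smooth muscle genes with serum response factor, was seen in 63.8% and 27.3% of Hhip-positive and Notch3-positive cells. Thinned to 2000 UMIs these shares were 23.7% (15.5 to 33.6%) and 16.7% (3.58 to 41.4%), whose intervals overlap. Against the other kept barcodes Myocd was at 102 and 138 CPM in small and large intestinal members, and at 0.169 and 0.0904 CPM there.

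Nitric oxide and cyclic GMP signalling relaxes muscle, and the 5 genes of its list found in the files had more CPM in Notch3-positive cells, 2 of them with intervals that span 0. Gucy1a1 and Gucy1b1, the subunits of the guanylate cyclase that nitric oxide activates, were at 664 and 458 CPM against 221 and 127 CPM. Pde3a, a phosphodiesterase that breaks down cyclic nucleotides and is inhibited by cyclic GMP, was at 261 against 52.7 CPM. Prkg1, the kinase that cyclic GMP activates, was at 103 against 88.3 CPM and Pde5a at 285 against 281 CPM, the pair whose log2 ratios have intervals that span 0 (for Pde5a -0.53 to 0.54). Against the other kept barcodes, the 5 genes were each at least 2-fold higher in members of both tissues, beside 33.6% and 28.7% of all genes measured.

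Calcium and potassium handling genes were compared between members and other kept barcodes. More CPM in members was seen for 14 of 14 listed genes in the small and 13 of 14 in the large intestine. Only 5 and 11 of these were measured, and all of them were at least 2-fold higher, beside 33.6% and 28.7% of all genes measured. Kcnmb1, the smooth muscle subunit of the calcium-activated potassium channel, had 90.4 and 131 CPM in members against 0.0562 and 0.0904 CPM. Kcnma1, the channel's pore, was at 132 CPM in Hhip-positive cells and 0 UMIs in the 22 Notch3-positive cells of the large intestine. Trpc6, a cation channel that lets calcium in, had 39.6 and 77.6 CPM in members and 3 UMIs in the 6069 other large intestinal barcodes. Cacna1c, the L-type calcium channel, was at 62.2 and 43.0 CPM.

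Pln was divided between the Hhip-positive and Notch3-positive members. Pln, phospholamban, holds back the calcium pump Atp2a2 and lies at chr10:53337686-53345999. It was seen in 8 of 10 Notch3-positive small intestinal cells (718 CPM) and in 40.9% of the Notch3-positive large intestinal cells (206 CPM). In Hhip-positive cells it had 0 UMIs in both tissues, 0 of 94 cells in the large intestine. It was not confined to Notch3-positive cells: 12 of all 19 small intestinal members had a Pln UMI, so some members outside these classes held it. Among the 474 fibroblast-marker barcodes it had 0 UMIs as well.

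Receptors for transmitters and hormones were sparse, as far as this depth shows. Ednra, an endothelin receptor, was at 119 and 142 CPM in members and at 0.580 and 1.06 CPM in other kept barcodes, and both classes of the large intestine held it (131 CPM Hhip-positive, 198 CPM Notch3-positive). Ednrb was at 99.1 CPM in large intestinal members. Chrm2, the muscarinic receptor most abundant in gut muscle, was seen in 3 of 19 small intestinal members at 164 CPM and in 1 of 119 large intestinal members, with 1 UMI. That large intestinal member was Notch3-positive, with 0 UMIs of Acta2 and Actg2, 22 of Rgs5 and 104 of the endothelial gene Plvap. Chrm3, the partner of Chrm2 in gut muscle, had 3 and 0 UMIs, and Tacr2, a tachykinin receptor, 0 and 2 UMIs.

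Those 3 Chrm2 cells stood apart from the other small intestinal members. They had neither Hhip nor Notch3 and were picked out after their values were seen. They held 231, 67 and 344 UMIs of Actg2 and 165, 57 and 283 UMIs of Des, among 21792, 17111 and 23043 UMIs in all. Kcnj8, a subunit of a potassium channel gated by ATP, had 14, 3 and 5 UMIs there and 0 in the other small intestinal members. Grem1, an inhibitor of bone morphogenetic proteins made by muscle beneath the crypts, had 19, 9 and 23 UMIs there and 0 in the others. Pcp4, a calmodulin regulator, and Tnnt2, cardiac troponin T, were at 520 and 373 CPM over the 19 members, with all UMIs in 15.8% of them, and had 0 UMIs in the 119 large intestinal members. The fourth member with neither gene held 27 UMIs of the fibroblast receptor Pdgfra, which is every Pdgfra UMI of the small intestinal members.

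Secreted factors that act on the epithelium and on vessels were mostly lower in CPM in Notch3-positive cells. Of 30 listed, 5 were measured between the classes of the large intestine, 3 at least 2-fold lower and 2 at least 2-fold higher in Notch3-positive cells, beside 14.2% and 19.2% of all genes measured. In CPM, 20 of 30 were lower and 6 higher, and 19 had 0 UMIs in the Notch3-positive cells, a group of fewer cells and UMIs. Bmp4 and Bmp5, ligands that promote differentiation of the epithelium, were at 138 and 128 CPM in Hhip-positive cells, each seen in 56.4% of them, and at 0 UMIs in Notch3-positive cells. Fibroblast-marker barcodes held them too, at 146 and 132 CPM, and after thinning to 2000 UMIs Bmp5 was seen in 19.4% (11.9 to 28.9%) of Hhip-positive cells, with an interval of 14.2 to 22.2% in fibroblast-marker barcodes. Wnt5a was at 69.8 CPM against 0, Nrg1, a ligand of ErbB receptors, at 86.9 against 0, and Igf1 at 540 against 7.90. Vegfc, the growth factor of lymphatic vessels, was seen in 44.7% of Hhip-positive cells at 71.2 CPM; over all large intestinal members it was at 59.7 CPM, and at 27.9 CPM in the fibroblast-marker barcodes. Cxcl12 and Kitl went the other way, at 601 and 324 CPM in Notch3-positive against 66.9 and 27.1 CPM in Hhip-positive cells. With 22 Notch3-positive cells, a gene at 0 UMIs is not shown to be absent.

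Chrdl2, an antagonist of bone morphogenetic proteins, was held by few other cells. It had 39 UMIs in 26 of the 94 Hhip-positive cells (55.5 CPM) and 1 UMI in the 6069 other large intestinal barcodes (0.00753 CPM). The 19 small intestinal members had 0 UMIs. R-spondins, which amplify Wnt signals for stem cells, were not prominent: Rspo1 and Rspo2 had 0 UMIs in members of both tissues, and Rspo3 had 45.2 and 17.9 CPM against 98.4 and 29.0 CPM in the fibroblast-marker barcodes. Reln, which lymphatic vessels make, had 0 UMIs in small intestinal members and 6 UMIs, all in 1 cell, in large intestinal ones. Over the list, against the fibroblast-marker barcodes, 0 of 8 measured were at least 2-fold higher and 4 lower in the small intestine, and 4 of 20 higher and 5 lower in the large intestine. Of all genes measured, 17.8% were higher and 22.5% lower in the small intestine, and 9.78% and 9.91% in the large.

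Some basement membrane genes differed between the classes of the large intestine. Notch3-positive cells had more Col4a2, a type IV collagen chain (767 against 318 CPM), Lamb2, a laminin chain of vessel and muscle basement membranes (198 against 19.9 CPM), and Sparcl1 (1723 against 295 CPM). Lamc1 and Nid1 gave ratios of -0.26 and -0.26, with intervals that span 0. Itga8, an integrin of muscle cells, was at 67.8 and 118 CPM in members of small and large intestine and at 2.25 CPM in the large intestinal fibroblast-marker barcodes. Itga1, an integrin that binds collagen, was at 554 and 450 CPM, 2.55 and 3.37 log2 units above them.

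Hhip-positive cells of the large intestine also carried genes of matrix and of fibroblasts. Postn, periostin, a matrix protein, was at 2624 CPM against 71.1 CPM in Notch3-positive cells. Rgs10, another regulator of G protein signalling, was seen in 100% of Hhip-positive cells at 1545 CPM against 23.7 CPM, and Rbp4, the retinol carrier, in 93.6% at 1077 against 7.90 CPM. Abi3bp and Adamdec1 were at 1289 and 971 CPM against 0 UMIs. Col3a1, of the rule, was at 3286 against 490 CPM. Over the fibroblast list, 6 of 12 genes were measured. Of these, 5 were at least 2-fold lower in Notch3-positive cells, beside 14.2% of all genes measured. In CPM, 9 of 12 were lower and 1 higher, and 7 had 0 UMIs in Notch3-positive cells, a group of fewer cells and UMIs. Pdgfra, which defines fibroblasts, was at 5.70 CPM in Hhip-positive cells and at 355 CPM in the fibroblast-marker barcodes.

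Some Notch3-positive barcodes also held endothelial RNA. Of the 22 in the large intestine, 4 had a UMI of Pecam1, Plvap or Cdh5, as had 3 of the 94 Hhip-positive cells, and in the small intestine 1 of 10 and 0 of 4. The 5 listed endothelial genes had more CPM in the Notch3-positive cells, through which they passed the minimum for a measured gene. Plvap was at 1209 against 1.42 CPM and Fabp4, a fatty acid carrier of capillaries, at 4877 against 2.85 CPM, with 68% and 76% of their UMIs in 1 cell. Without the members that held an endothelial UMI, the median over the mural genes was 4.21 in place of 4.78. Immediate-early genes moved with the classes too, 9 of 9 higher in CPM in Notch3-positive cells by any amount. Of all genes measured, 19.2% were at least 2-fold higher there. Fos was at 3422 against 1181 CPM and Atf3 at 340 against 24.2 CPM. The part of endothelial RNA and of immediate-early genes in the differences between classes was not tested.

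Between the tissues, the contractile genes depended on a few small intestinal cells. Of all UMIs of the 19 small intestinal members, 35.0% came from the 3 cells with a Chrm2 UMI, so values without the members that held one (3 in the small and 1 in the large intestine, left out after the values were seen) are given beside the others. Des stood at 3487 CPM in the small and 350 CPM in the large intestine, a log2 ratio of 3.32 (3.11 to 3.52), in a gene of the rule. The 3 cells held 81.8% of the small intestinal Des UMIs, and without them the levels were 974 and 352 CPM, a ratio of 1.47 (1.14 to 1.79). Thinned to 2000 UMIs, Des was detected in 88.9% of the 18 deep enough small intestinal members and in 33.6% of the 113 large intestinal ones (94.7% and 47.1% unthinned). Of the contractile list, 22 of 25 genes were higher in CPM in the small intestine and 6 of 25 at least 2-fold, beside 8.97% of the 1740 genes measured. The median was 0.68, beside -0.18 over all genes measured, and 0.02 for the same list in the other kept barcodes. Without the Chrm2 cells 14 of 25 were higher in CPM, 2 of 25 at least 2-fold higher and 1 lower, and the median was 0.08. Actg2 then turned, from 4199 and 2100 CPM to 878 and 2134 CPM, a ratio of -1.28 (-1.58 to -0.99), and so did Cnn1, to a ratio of -0.81. Synm stood at 718 and 83.6 CPM, and at 200 and 84.9 CPM without those cells. Mylk stood at 5211 and 1766 CPM, and at 2061 and 1792 CPM without them. Pln stood at 390 and 31.0 CPM, and at 470 and 31.5 CPM without them. When each cell's CPM was averaged with equal weight, the median of the contractile list fell to 0.26.

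Of the mural list, 5 of the 8 measured genes were at least 2-fold higher in small intestinal members, beside 8.97% of all genes measured, with a median of 1.15, and 4 of 8, with 1 lower and a median of 1.21, without the Chrm2 cells. Over the whole list 10 of 16 had more CPM in small intestinal members, and the same list had a median of 0.48 between the tissues in the other kept barcodes, with 5 of 11 at least 2-fold higher. Notch3 was at 350 and 93.1 CPM, and at 539 and 93.4 CPM without those cells, and Epas1, of the factors, at 413 and 137 CPM (635 in the small intestine without them). The Notch3-positive share of the members also differed, 52.6% against 18.5%. Whether the levels differ within a class was described by values alone: Notch3-positive cells had 790 and 617 CPM of Notch3 in small and large intestine, 330 and 569 CPM of Pdgfrb, and 302 and 371 CPM of Rgs4.

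The large intestinal members were higher in other genes, and 15.6% of all genes measured were at least 2-fold higher there. Hhip-positive cells made up 79.0% of the large but 21.1% of the small intestinal members. Several of the genes below were higher in that class, and the part of this in the values was not tested. Hhip was at 215 and 2168 CPM, with 66% of the small intestinal UMIs in 1 cell. Rbp4 had 0 UMIs and 906 CPM, a log2 ratio of -5.74 or lower with 3 UMIs in place of 0. Rgs10 was at 50.9 and 1303 CPM and Enho, a secreted metabolic peptide, at 17 and 390 CPM, while other kept barcodes held 17.7 and 19.1 CPM of Rgs10 and 1.89 and 2.84 CPM of Enho. Mfap5 was at 11.3 and 684 CPM, Postn at 514 and 2230 CPM and Foxf2 at 17 and 119 CPM. Bmp4 was at 17 and 118 CPM.

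RNA of epithelial genes was part of this comparison, and how it came to be in the members was not tested. Defa24, a Paneth cell defensin, was seen in 19 of 19 small intestinal members at 1600 CPM, with 61621 CPM in the other small intestinal barcodes and 0 UMIs in the large intestinal members. Lyz1, Paneth cell lysozyme, was at 243 and 3.58 CPM. In the other direction, Retnlb, a goblet cell protein, was at 0 and 334 CPM in members and at 17.9 and 2661 CPM in the other kept barcodes. Agr2, which folds mucins in goblet cells, was at 28.3 and 601 CPM in members and at 1927 and 7409 CPM in the others.

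**Figure D4:**
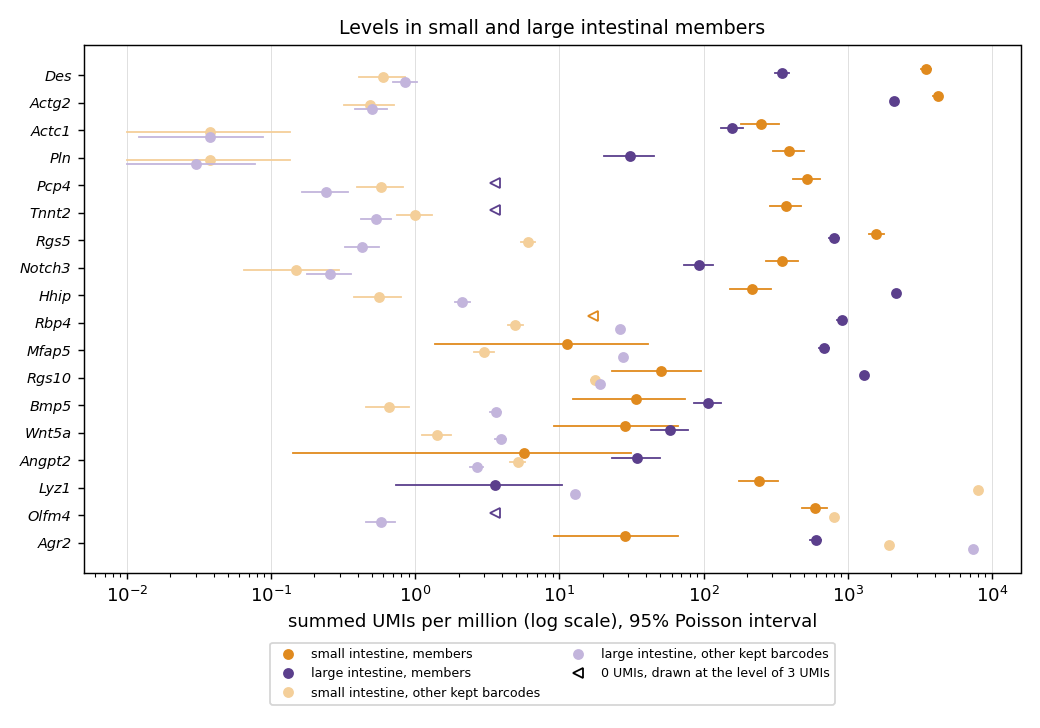
CPM on a log axis with 95% Poisson intervals, for the 19 small and 119 large intestinal members (dark) and the other kept barcodes (pale); open triangles mark 0 UMIs, drawn at the level of 3 UMIs. Des and Pln are higher in the small intestinal members, and Hhip, Rbp4, Rgs10 and Mfap5 in the large intestinal ones.

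In the Visium sections, spots rich in the 4 marker genes were examined for the same lists. Spots with at least 2000 UMIs were kept, between 2063 and 2424 per section, and the 25 percent with the highest share of Myh11, Acta2, Rgs5 and Des UMIs were set against the rest of that section. Every contractile gene was at least 2-fold higher in both small intestinal sections, and 24 of 25 in both large intestinal sections. Beside this, 25.9% and 32.1% of all genes measured were at least 2-fold higher in small intestinal sections 1 and 2, and 19.1% and 19.4% in large intestinal sections 1 and 2. The list's median was 4.30 and 4.23 in the small and 3.77 and 3.72 in the large intestine. The mural list had medians of 3.23 and 3.24, and of 2.70 and 2.19.

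Single genes split between those that followed the marker-rich spots and those that did not. Actg2 gave log2 ratios of 4.75 and 4.58 in the small and 5.02 and 4.96 in the large intestinal sections. Chrm2, so sparse among the sorted members, gave 4.93, 4.58, 5.13 and 5.07, and Pln 4.17, 4.13, 4.998 and 4.67. Notch3 gave 2.40, 1.86, 1.67 and 1.61. Hhip, held by most large intestinal members, was lower in the marker-rich spots, by -1.35 and -1.03 in the small and -0.61 and -0.30 in the large intestine, the last with an interval from -0.72 to 0.10. Its levels were low, at 9.12 and 13.9 CPM in rich spots and the rest of large intestinal section 1. Adamdec1 was lower as well, at -0.43, -0.67, -0.97 and -0.88.

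A spot holds several cells, and other lists rose with the marker genes. The mesothelial list, with 3 of 4 genes measured in the small and 2 of 4 in the large intestinal sections, had medians of 4.22, 4.02, 5.13 and 4.67, and the fibroblast list 2.31, 2.29, 2.01 and 2.05, while the epithelial list was at -1.71, -2.21, -0.65 and -0.60. Rich spots held a median of 9908 UMIs against 22400 in the rest of large intestinal section 1, and 9255.5 against 10908 in small intestinal section 1. The part of these in the ratios was not tested. The sections of a tissue are technical duplicates, so their agreement says nothing of other animals.

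**Figure D5:**
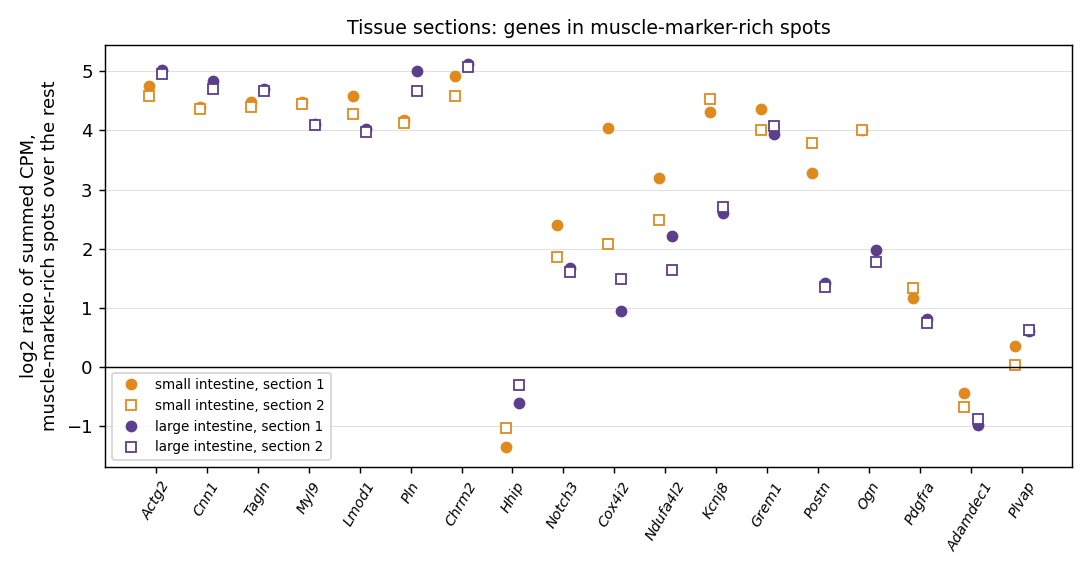
Log2 ratio of CPM in marker-rich spots over the other spots of the same section, with filled and open symbols for sections 1 and 2 of the small and large intestine. Actg2 lies between 4.58 and 5.02, while Hhip and Adamdec1 lie below 0 in all 4 sections.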

How the data were processed

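Single-cell and Visium matrices held whole-number UMI counts as deposited by the authors, made with Cell Ranger 6.0.1 and Space Ranger 1.2.1 per the file headers, on mm10 per the submitters' processing notes. Counts were summed over the cells of a group in each library and divided by the group's total UMIs (CPM). Log2 ratios carry exact conditional 95% intervals, CPM exact Poisson ones and shares Clopper-Pearson ones. A gene was measured when the group with fewer UMIs in all had at least 20 of its UMIs, or would have had them at the other group's level, and called when its ratio was at least 2-fold; a group at 0 UMIs was set to 3 UMIs and the ratio read as a bound. Shares of cells with a UMI were also taken after thinning each cell to 2000 UMIs, and the thinned value stands beside some of them; shares of scarce genes fall with it. No test was run, because each tissue had 1 library. Doublets were kept, and an alternative removed the highest Scrublet scores. Of 32285 gene IDs, 32158 were found in the gene name table.

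The members, the 21 gene lists (216 genes) and the alternatives were chosen with earlier results of these data known. Beyond the lists, the named genes were the 20 with the highest ratio over other kept barcodes in the lower of both libraries, the 10 highest and lowest against fibroblast-marker barcodes, and the 8 highest and lowest between tissues, with a UMI in at least 10% of cells. Genes named between the Hhip and Notch3 classes were chosen after their values were seen. Ratios were tested on simulated data. Python 3.11.15, numpy 2.4.6, scipy 1.17.1, pandas 2.3.3, scanpy 1.11.5 and matplotlib 3.10.9 were used.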

Additional observations from a re-analysis of the deposited data

Results flagged for a closer look

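In 3 genes the ratio of members over fibroblast-marker barcodes had opposite signs in the 2 tissues. Each tissue had 1 library, so the difference was not tested. Lamb2, a laminin chain, stood at 254 CPM in members and 56.5 CPM in fibroblast-marker barcodes of the small intestine, a log2 ratio of 2.171, and at 49 and 103 CPM in the large intestine, a ratio of -1.077. Abi3bp, a matrix-associated protein, stood at 130 and 313 CPM in the small intestine, a ratio of -1.269, and at 1082 and 384 CPM in the large intestine, a ratio of 1.494. Ncam1, an adhesion molecule, stood at 119 and 337 CPM in the small intestine, a ratio of -1.505, and at 516 and 157 CPM in the large intestine, a ratio of 1.718.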

How the results depend on the processing

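Of 194 alternatives to the main list medians and shares, 173 stayed close to the main value, 21 moved and 0 reversed. Of 714 alternatives for single genes, 622 stayed close, 80 moved and 12 reversed. Where no reason is given, the cause was not tested. Without the members with a blood endothelial UMI, Notch3-positive over Hhip-positive gave 0.24 for Myl9, 0.30 for Tagln and -0.74 for the contractile list. Without members with 3 UMIs of other lineages it gave 0.0749 for Myl9 and 0.13 for Tagln, and with at least 2 UMIs per class 0.016 for Myl9. Without the members with a Chrm2 UMI, small over large intestinal members gave -1.28 for Actg2, -0.81 for Cnn1, -0.38 for Optc, -0.10 for Tagln and 0.0793 for the contractile list, and the small intestinal contractile median over other kept barcodes was 6.68. The class and Chrm2 alternatives were chosen after seeing the data. Small over large intestinal members gave -0.0379 for Actc1 where M was at least 2 times F, -0.62 for Actc1 with the highest Scrublet scores removed, and -0.10 for Myl9 at 10% mitochondrial UMIs or fewer. Averaging each cell's CPM gave contractile medians of 5.86 and 5.76 over other kept barcodes in small and large intestine, 0.26 between tissues, and pericyte medians of 5.80 and 5.57. The large intestinal contractile median over other kept barcodes was 6.95 without mitochondrial and ribosomal genes, 6.99 at 10% mitochondrial UMIs, 7.26 with Scrublet removal and 7.33 without other lineages, which gave 3.82 over fibroblast-marker barcodes. The small intestinal one was 6.80 at 10% mitochondrial UMIs. The share of large intestinal members was 1.52% with M at least 2 times F. In the sections, a stricter choice of marker-rich spots (10 percent) gave contractile medians of 3.23 and 3.60 and a pericyte median of 2.33 in the small intestine. There, leaving out mitochondrial and ribosomal genes gave 4.34 and 3.31, and a 500 UMI minimum 3.25 for the pericyte list. Leaving out each section gave contractile medians of 4.23 to 4.30 and 3.72 to 3.77 and pericyte medians of 3.23 to 3.24 and 2.19 to 2.70. A split by Rgs5 gave no values, as it needed 20 cells on each side in each library. No paired analysis was possible because each tissue had 1 sorted library and the numbered sections are technical duplicates. The small intestine gave only 19 members, which limits its values.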
